A study of Mus musculus with 25 samples.

Results

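The 10 imprinted genes H19, Zim1, Peg3, Meg3, Dlk1, Cdkn1c, Plagl1, Grb10, Mest and Ndn, known for their part in growth, were followed through 8 compartments of the mouse palate at E14.5. They were chosen by name, as the rows of the expression table that carry these symbols. All 10 had 1 row each, of 37406 genes in the table. The compartments were the medial, lateral, oral and nasal parts of the anterior and of the posterior palatal shelves, cut out by laser capture microdissection from wild type CD1 embryos. RNA was amplified, tagmented and sequenced, and the values are RPKM (reads per kilobase of transcript and per M reads). There were 3 libraries of each compartment and 4 of the anterior nasal one, 25 in all, 13 anterior and 12 posterior. The labels call the libraries of a compartment replicates, and the paper calls them biological triplicates, with 1 quadruplicate. Neither says whether they came from separate embryos, so the p-values measure the spread between libraries. Each value is an average over all cells of a captured compartment, in which fewer expressing cells and less RNA per cell cannot be told apart. The reads were not assigned to parental alleles, and the values are the sum of both.

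An imprinted gene is transcribed mainly from the chromosome of 1 parent, under the control of DNA methylation that is laid down in the germ line and shared by neighbouring genes of a cluster. Many maternally expressed genes restrain growth of the embryo, and many paternally expressed genes promote it. In mouse H19, Cdkn1c, Grb10, Meg3 and Zim1 are expressed mainly from the maternal chromosome in most embryonic tissues, and Dlk1, Peg3, Mest, Plagl1 and Ndn from the paternal one.

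The members lie in several clusters. In the coordinates of the table, which are those of the mm9 build, Zim1 (chr7:6628154-6649143) and Peg3 (chr7:6658671-6683130) are neighbours, as are Dlk1 (chr12:110691033-110701546) and Meg3 (chr12:110779206-110809939). H19 (chr7:149761436-149764051) and Cdkn1c (chr7:150644244-150646955) lie on the distal part of chromosome 7 and Ndn (chr7:69493163-69494813) on its central part. Plagl1 is at chr10:12780310-12851501, Grb10 at chr11:11830502-11937423 and Mest at chr6:30683506-30698457. Peg3 shares a divergent start region with Usp29, another paternally expressed gene of the Zim1 cluster, and the values of these 3 genes were correlated over the libraries, as shown further on. Their start regions are printed for that reason. In RefSeq windows from 250 bases before to 50 bases after the transcription start, on GRCm38.p6, the Peg3 window (chr7:6730370-6730669, minus strand) overlaps that of Usp29 (chr7:6730333-6730632, plus strand) by 263 bases, head to head. The Zim1 window is chr7:6696383-6696682, minus strand. Capitals in the Peg3 sequence mark the motif GGGGCCCC, a consensus of the zinc finger protein Plagl1 that reads the same on both strands, at base 50. Capitals in the Zim1 sequence mark its 20 CG dinucleotides. The sequences follow, 5′ to 3′.
Peg3: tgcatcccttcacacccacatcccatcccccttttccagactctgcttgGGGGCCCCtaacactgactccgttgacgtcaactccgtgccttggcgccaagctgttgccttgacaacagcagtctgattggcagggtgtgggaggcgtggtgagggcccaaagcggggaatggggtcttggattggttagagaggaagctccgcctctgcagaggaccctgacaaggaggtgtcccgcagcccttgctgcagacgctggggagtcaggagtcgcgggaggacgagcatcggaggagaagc
Zim1: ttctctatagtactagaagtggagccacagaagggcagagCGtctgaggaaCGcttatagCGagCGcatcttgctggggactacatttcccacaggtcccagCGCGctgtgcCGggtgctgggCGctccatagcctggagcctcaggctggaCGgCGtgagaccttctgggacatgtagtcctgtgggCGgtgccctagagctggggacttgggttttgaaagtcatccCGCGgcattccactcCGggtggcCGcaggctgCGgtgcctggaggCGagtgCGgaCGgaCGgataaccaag
The overlap puts the same site in the Usp29 window, at base 281 of it. The motif occurs in 354 of 32851 RefSeq start windows, 1.08%, and among the 12 windows of the 8 members that had one it was found in that of Peg3 alone. Another motif, GCCATNTT, the core of a Yy1 site, was searched on both strands and occurred in 6.05% of all windows and in 0 of the 12. H19 and Cdkn1c had no window in this table. The observed over expected ratio of CG was 0.716 in the Zim1 window, 0.463 in that of Peg3 and 0.384 at the median over all windows.

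Libraries differed in depth and in likeness to each other. The values implied a median of 3.27 M reads in a library, the lowest being 1.64 M and the highest 6.56 M. These totals lie well below the average number of reads per sample that the paper states. Its pipeline removed duplicate reads and reads with multiple alignments, and the part of that in the gap was not tested. The libraries that stood apart were posterior medial replicate 2, anterior oral replicate 1 and anterior nasal replicate 1, whose median correlations with the other libraries over genes were 0.658, 0.719 and 0.782, the lowest of the 25. The libraries came from 8 sequencing runs. No run held both lateral and medial libraries of the same region, so run and compartment cannot be told apart in those comparisons. Palatal mesenchyme markers summed to 463 to 903 RPKM, with all 6 genes detected. Markers of other tissues were present too, with sums of 15.1 to 120 RPKM for 7 epithelial genes and 4.01 to 168 RPKM for 10 skeletal muscle genes, of which the muscle regulators Myod1 and Myf5 had a median of 0. The osteoblast markers summed to 46.9 to 547 RPKM and the red cell markers to 270 to 952 RPKM, which overlapped the range of the mesenchymal ones.

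All 10 genes were expressed in every compartment. Mest, a protein of the hydrolase fold family, had the highest median, 385 RPKM, which ranked 16th of all genes, followed by the noncoding RNA H19 at 366 RPKM, ranked 22nd. Plagl1 (183 RPKM), Peg3 (170 RPKM), Grb10 (157 RPKM) and Cdkn1c (144 RPKM) came next, and Meg3 (67.3 RPKM), Ndn (64.6 RPKM) and Dlk1 (40.5 RPKM) were lower. Zim1 was the lowest of the 10 at 21.1 RPKM, ranked 3930th. The genes also differed in how much they varied. Between the lowest and the highest library Grb10 spanned 1.92-fold, Meg3 2.25-fold, Mest 2.32-fold, Cdkn1c 2.50-fold, Ndn 2.52-fold, H19 3.01-fold, Peg3 4.06-fold, Dlk1 4.95-fold, Zim1 15.8-fold and Plagl1 21.5-fold, the last owing to 1 library. The share of the variance of the log2 values that lay between compartments was 71.6% for Zim1, 62.1% for Peg3 and 61.5% for Meg3, and 24.05% for Mest and 24.03% for Ndn. The median was 48.8% over the 10 members and 29.6% over 11913 genes, whose 90th percentile was 54.7%. With few libraries in each compartment, some of the variance falls between compartments also for a gene that does not differ among them.

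**Figure D1:**
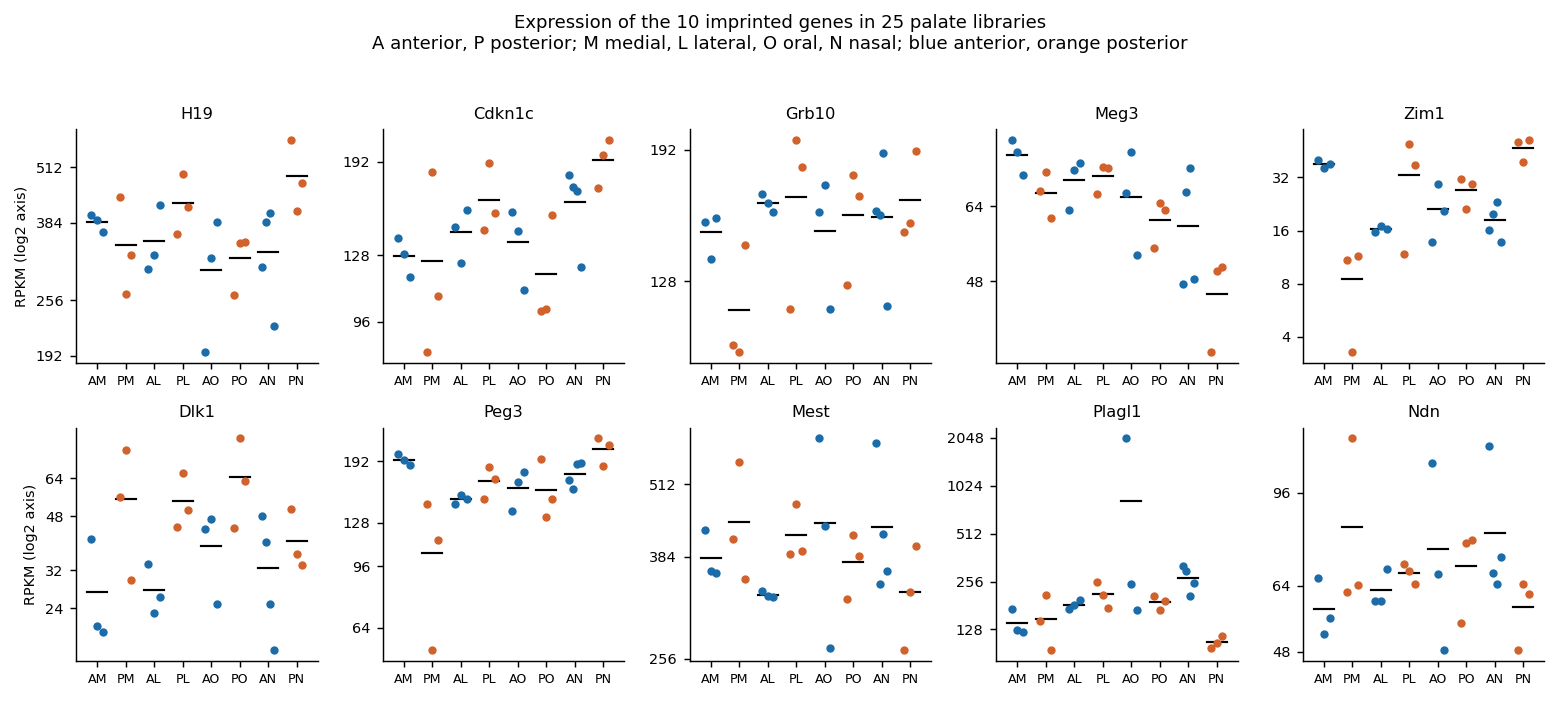
RPKM of the 10 imprinted genes in each of 25 libraries (points; log2 axes that differ between genes, blue anterior, orange posterior) by compartment, with the compartment mean as a bar. Zim1 runs from 3.29 RPKM in a posterior medial library to 52.1 RPKM in a posterior nasal one, and a single anterior oral library holds the high value of Plagl1.

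A moderated F-test over the 8 compartments asked whether any gene differed among them. Of the 10 members 1, Zim1, passed it at an adjusted p under 0.05 (limma, Benjamini-Hochberg, adjusted p = 0.016), beside 4.42% of all 11913 genes tested. Its highest and lowest compartment means were 2.63 apart on the log2 scale. Peg3, Meg3, Dlk1 and Plagl1 had unadjusted P of 0.013, 0.030, 0.038 and 0.043 in the same test, with adjusted p from limma of 0.17, 0.31, 0.35 and 0.38. The other 5 members, H19, Cdkn1c, Grb10, Mest and Ndn, had unadjusted P between 0.11 and 0.67. Without the 3 libraries that stood apart the means of Zim1 were 2.05 apart with an adjusted p of 0.028 (limma).

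Zim1, a zinc finger gene of the Peg3 cluster, had the widest span of compartment means of the 10 on the log2 scale. In the anterior medial libraries its values were 40.1, 36.2 and 38.0 RPKM, and in the anterior lateral ones 15.8, 17.1 and 16.3 RPKM. The replicates of both compartments lay close together and the groups were far apart. In the posterior palate the order was the opposite, with 10.9, 3.29 and 11.4 RPKM in the medial libraries and 11.8, 49.6 and 37.4 RPKM in the lateral ones. There the groups did not overlap either, but the lowest lateral library was only just above the highest medial one. The anterior oral libraries had 13.8, 29.3 and 20.7 RPKM and the anterior nasal ones 16.2, 19.9, 23.2 and 13.8 RPKM, which overlapped throughout. The posterior oral libraries had 31.4, 21.1 and 29.2 RPKM and the posterior nasal ones 50.5, 39.0 and 52.1 RPKM, the highest of any compartment. Ordered by mean, Zim1 ran from posterior nasal (47.2 ± 7.15, SD, n = 3) through anterior medial (38.1 ± 1.95, n = 3), posterior lateral (32.9 ± 19.3, n = 3), posterior oral (27.2 ± 5.42, n = 3), anterior oral (21.3 ± 7.79, n = 3), anterior nasal (18.3 ± 4.11, n = 4) and anterior lateral (16.4 ± 0.635, n = 3) to posterior medial (8.56 ± 4.57, n = 3). Neighbours in this order lay within their SDs of each other, except that the anterior lateral and posterior medial means were more than their SDs apart.

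**Figure D2:**
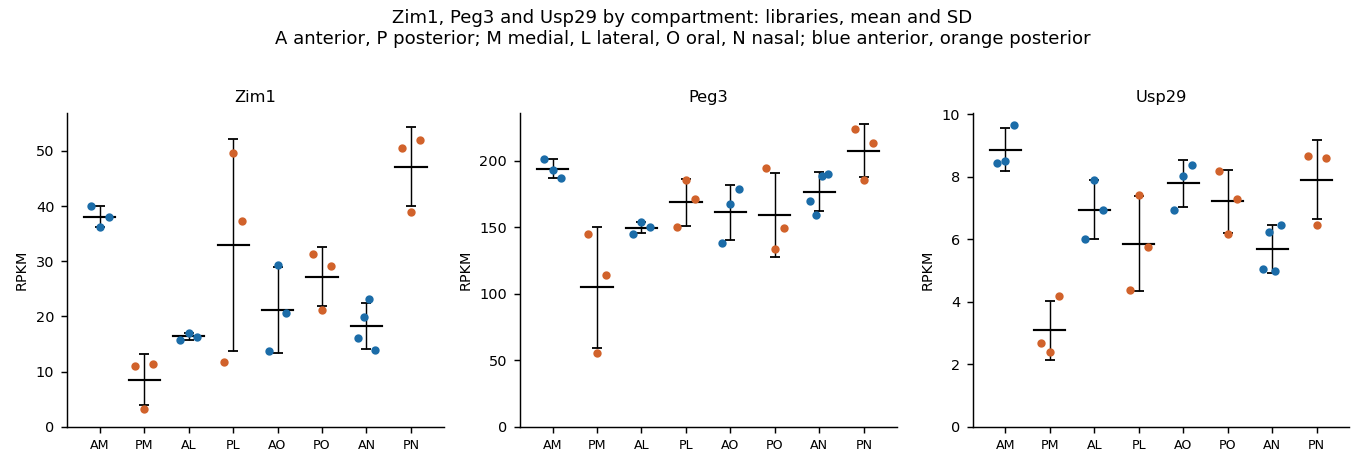
RPKM of Zim1, Peg3 and Usp29 by compartment (points are libraries, bars the mean and SD; blue anterior, orange posterior; axes start at 0). All 3 genes have their lowest mean in the posterior medial compartment, and all 3 are lower in the anterior lateral libraries than in the anterior medial ones.

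Peg3, the paternally expressed zinc finger neighbour of Zim1, had differences of the same sign as Zim1 and of smaller size between lateral and medial tissue in both regions and between posterior oral and nasal tissue. The signs were opposite in anterior oral against nasal (0.18 for Zim1 and -0.14 for Peg3 on the log2 scale) and in posterior against anterior (0.08 and -0.16), where neither passed the test. It had 187 to 202 RPKM in the anterior medial libraries and 145 to 154 RPKM in the anterior lateral ones. It had 55.1 to 145 RPKM in the posterior medial libraries, its lowest compartment at 105 ± 45.7 (SD, n = 3), and 150 to 185 RPKM in the posterior lateral ones. The posterior nasal mean was again the highest, 208 ± 19.7, and its libraries, with 186 to 224 RPKM, overlapped those of other compartments. Usp29, the gene that starts head to head with Peg3, was much lower, with a median of 6.93 RPKM, and had its highest mean in the anterior medial compartment (8.88 ± 0.687) and its lowest in the posterior medial one (3.08 ± 0.957). Usp29 passed the test over the 8 compartments (limma, adjusted p = 0.0032).

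The question of the lateral and medial comparison was which genes differ across the width of the shelf, near the seam of fusion and away from it. In the anterior palate Zim1 was lower in lateral than in medial tissue by 1.21 ± 0.11 on the log2 scale (SE, a 2.31-fold difference, limma, adjusted p = 0.0028), and it alone of the 10 members passed, beside 2.51% of 10427 genes. It was also the only member past the thresholds of the study, an unadjusted P under 0.05 with a fold change over 2, beside 2.37% of all genes. Peg3 gave -0.37 ± 0.10 (unadjusted P = 0.0081, limma adjusted p = 0.13) and Plagl1 0.40 ± 0.16 (unadjusted P = 0.036, adjusted p = 0.28). The values of 4 members, Zim1, Peg3, Grb10 and Mest, did not overlap between the groups, where 21.3% of all genes did not. The log2 differences of the 10 members ranged from -1.21 to 0.40 with a median of -0.03, the same as the median of all genes. The anterior medial libraries also had more of the cartilage markers than the lateral ones (summed 18.9 to 35.1 against 9.03 to 11.4 RPKM) and less of the endothelial ones (96.6 to 115 against 132 to 150 RPKM). Schwann cell and nerve markers (10.2 to 18.4 against 21.8 to 22.1 RPKM) and palatal mesenchyme markers (563 to 609 against 612 to 684 RPKM) were lower in medial libraries too. The part of these markers in the difference of Zim1 was not tested. With all 25 libraries in a single fit the same difference of Zim1 had an adjusted p of 0.80, and with the sequencing run as a further term it was -1.62 with an adjusted p near 1.

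In the posterior palate no member passed at an adjusted p under 0.05, and 0% of 10324 genes did, although 159 genes had an unadjusted P under 0.05. The lowest adjusted p of any gene was 0.45. Zim1 gave 1.89 ± 0.72 higher in lateral tissue (3.72-fold, unadjusted P = 0.037, limma adjusted p = 0.96), and was the 1 member past the thresholds of the study, beside 1.12% of all genes. Without posterior medial replicate 2 the difference was 1.32, and without posterior lateral replicate 1 it was 2.51. The values of 2 members, Zim1 and Peg3, did not overlap between the groups, beside 6.62% of all genes. The other 9 members gave log2 differences of 0.79 for Peg3, 0.58 for Plagl1, 0.48 for Grb10, 0.45 for Cdkn1c, 0.33 for H19, 0.09 for Meg3, 0.06 for Dlk1, -0.05 for Mest and -0.22 for Ndn. Without posterior medial replicate 2 that of Peg3 was 0.39 and that of Ndn 0.10. Epithelial markers were higher in the posterior medial libraries (40.4 to 103 RPKM summed) than in the lateral ones (15.1 to 22.0 RPKM), as were Schwann cell and nerve markers (19.5 to 35.1 against 10.46 to 15.5 RPKM). Muscle markers were higher in the lateral libraries (25.5 to 168 against 4.01 to 24.5 RPKM). The part of these markers in the differences was not tested.

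The difference between the regions was itself tested as an interaction, the posterior lateral minus medial difference less the anterior one. Zim1 gave 3.10 ± 0.79 on the log2 scale (unadjusted P = 0.0026) and Peg3 1.17 ± 0.43 (unadjusted P = 0.021). Neither passed over all genes (limma, adjusted p = 0.63 and 0.96), and 0 of 10 members did, beside 0.00902% of 11089 genes, that is 1 gene. Without posterior medial replicate 2, the library least like the others, the interactions were 2.53 for Zim1 and 0.76 for Peg3. Usp29 had the same sign, 1.27 ± 0.36 (unadjusted P = 0.0056, adjusted p = 0.81). Some of this could be set side by side within a sequencing run. In the run that held all 3 anterior medial libraries, 2 posterior medial libraries had 3.29 and 11.4 RPKM of Zim1 against 36.2 to 40.1 RPKM in the anterior medial ones. In another run 2 posterior lateral libraries had 37.4 and 49.6 RPKM against 16.3 RPKM in the 1 anterior lateral library.

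Oral and nasal tissue were compared to find genes that differ between the faces of the shelf. In the anterior palate 0 of 10 members passed, and 0% of 10684 genes did, with 318 genes at an unadjusted P under 0.05 (limma, lowest adjusted p = 0.11). No member reached the thresholds of the study, which 1.44% of all genes did, and none was free of overlap between the groups, which 3.67% of all genes were. Plagl1 gave 0.73 ± 0.77 on the log2 scale, which rested on anterior oral replicate 1, and without that library it was -0.38. The others were 0.30 for Dlk1, 0.18 for Zim1, 0.17 for Meg3, -0.02 for Mest, -0.06 for Grb10, -0.14 for Peg3, -0.14 for Ndn, -0.15 for H19 and -0.25 for Cdkn1c. These values are from the fit without a replicate block. Libraries of the same number were weakly correlated here (r of deviations from compartment means 0.116 to 0.242). In 3 of 3 such pairs H19, Cdkn1c and Ndn were lower in oral than in nasal tissue. The share of all genes that did so was not counted. Only the pair numbered 1 shared a sequencing run. Oral replicate 3 shared a run with nasal replicate 4, where H19 was higher in oral tissue (385 against 224 RPKM). Oral replicate 2 shared one with nasal replicate 3, where Ndn was higher in oral tissue (67.4 against 64.4 RPKM). The other values of these genes in those runs were lower in oral tissue. With the replicate number as a block 0 of 10 members passed, and Cdkn1c gave -0.38 (unadjusted P = 0.23, limma adjusted p near 1). Endothelial markers were higher in the oral libraries (116 to 176 against 64.5 to 110.4 RPKM summed) and cartilage and osteoblast markers lower (7.67 to 14.4 against 21.9 to 30.6 RPKM, and 46.9 to 75.0 against 90.6 to 120.0 RPKM), and their part was not tested.

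In the posterior palate 4 members had an unadjusted P under 0.05, as did 847 of 10586 genes, 8%, and none passed the adjustment (limma), beside 1.25% of all genes that did. Plagl1, a zinc finger transcription factor, was higher in oral libraries (170 to 208 RPKM) than in nasal ones (98.4 to 117 RPKM), a difference of 0.83 ± 0.20 (unadjusted P = 0.0031, adjusted p = 0.13). Zim1, Cdkn1c and H19 went the other way. Zim1 gave -0.80 ± 0.24 (unadjusted P = 0.010, adjusted p = 0.26). Cdkn1c, an inhibitor of cyclin-dependent kinases, had 101 to 152 RPKM in oral and 171 to 211 RPKM in nasal libraries, a difference of -0.73 ± 0.24 (unadjusted P = 0.015, adjusted p = 0.33). H19 had 264 to 348 RPKM in oral and 408 to 590 RPKM in nasal libraries, a difference of -0.62 ± 0.23 (unadjusted P = 0.029, adjusted p = 0.47). The value of 590 RPKM is that of posterior nasal replicate 1, whose implied reads of H19 exceed its start positions, as given further on. Over the libraries left out in turn the H19 difference was -0.74 to -0.47, with unadjusted P of 0.029 to 0.093 (limma). Plagl1, Zim1, Cdkn1c, H19 and Meg3 were the 5 members whose values did not overlap, beside 11.8% of all genes. No member reached the thresholds of the study, where 3.5% of all genes did, since none of the differences was over 2-fold.

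The posterior nasal libraries stood out for bone markers. Their 6 osteoblast genes summed to 378 to 547 RPKM, against 83.5 to 107 RPKM in the posterior oral libraries and 46.9 to 185 RPKM in the other 7 compartments together. H19, Cdkn1c, Peg3 and Zim1 had their highest compartment mean in posterior nasal tissue, at 490 ± 92.1, 193 ± 20.1, 208 ± 19.7 and 47.2 ± 7.15 RPKM, and Meg3 and Plagl1 their lowest, at 45.7 ± 7.90 and 107 ± 9.38 RPKM (SD, n = 3). Each of these means lay within the SDs of the next compartment in the order of that gene. The share of all genes with their highest or lowest mean in posterior nasal tissue was not counted. Endothelial markers were lower in the posterior nasal libraries (52.3 to 79.3 RPKM) than in the posterior oral ones (118 to 179 RPKM). The part of the bone and endothelial markers in these values was not tested. The interaction of oral against nasal with position was passed by 0 of 10 members, beside 0.035% of 11442 genes, and Zim1 gave -0.98 ± 0.41 (unadjusted P = 0.035, limma adjusted p near 1).

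**Figure D3:**
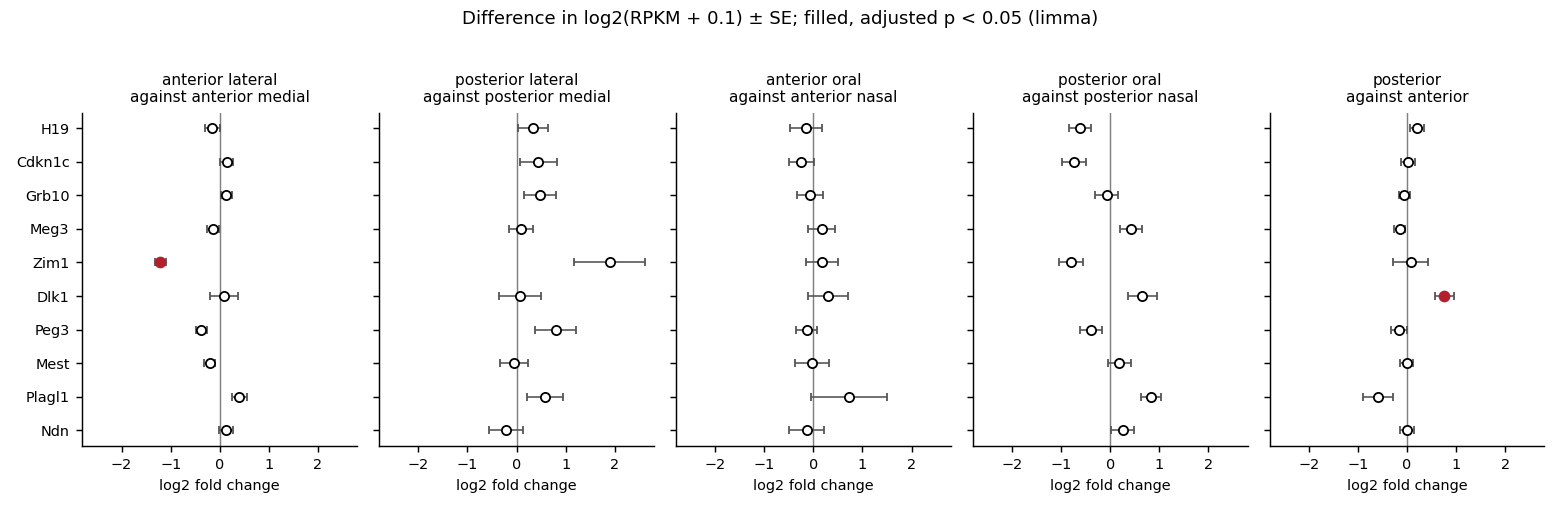
Differences in log2(RPKM + 0.1) of the 10 genes in the 5 comparisons (points, with SE bars; filled points have an adjusted p under 0.05 by limma). Zim1 in the anterior lateral against medial comparison and Dlk1 in the posterior against anterior comparison are the filled points, at -1.21 and 0.76.

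Posterior tissue was compared with anterior tissue over all 25 libraries, which the other comparisons share. Dlk1, a transmembrane protein of the Delta-like family that holds back differentiation of fat precursors, was the 1 member that passed. It had a lowest value of 29.7, a median of 50.5 and a highest value of 86.5 RPKM in the 12 posterior libraries, and 17.5, 26.2 and 47.97 RPKM in the 13 anterior ones. The groups overlapped, and no member was free of overlap, beside 0.267% of all genes. Dlk1 was 0.76 ± 0.19 higher in posterior tissue on the log2 scale (1.70-fold, limma, adjusted p = 0.022), beside 3.32% of 8608 genes that passed. It did not reach the fold change over 2, and 0 of 10 members met the thresholds of the study, which 1.75% of all genes did. The other 9 members gave log2 differences from -0.59 (Plagl1) to 0.21 (H19), and the median over the members was 0.00. The difference of Plagl1 was -0.33 without anterior oral replicate 1 and -0.26 with run as a term.

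By compartment Dlk1 was 55.4, 79.4 and 29.7 RPKM in posterior medial and 44.2, 66.7 and 50.4 RPKM in posterior lateral libraries. It was 43.9, 86.5 and 62.7 RPKM in posterior oral and 50.7, 36.1 and 33.2 RPKM in posterior nasal ones. The anterior values were 40.5, 20.98 and 20 RPKM in medial, 33.5, 23.1 and 26.2 RPKM in lateral, 43.7, 47.0 and 24.9 RPKM in oral and 47.97, 39.6, 24.7 and 17.5 RPKM in nasal libraries. The posterior mean was the higher at each of the 4 positions, and the spread among replicates was wide, so that neighbours in the order of compartment means lay within their SDs of each other. In 3 sequencing runs anterior and posterior libraries were sequenced together. In the first, the 2 anterior libraries had 17.5 and 24.9 RPKM and the 2 posterior ones 43.9 and 50.7 RPKM. In the second, the 1 anterior library had 26.2 RPKM and the 3 posterior ones 33.2 to 66.7 RPKM. In the third, which held 3 anterior and 5 posterior libraries, the values overlapped, with 20 to 40.5 against 29.7 to 86.5 RPKM. With run as a term over all libraries the difference was 1.10 with an adjusted p of 0.13, and with each library centred on its median it was 0.71 with an adjusted p of 0.055. Leaving out each library in turn gave 0.69 to 0.83, with adjusted p no higher than 0.042, and leaving out the 3 libraries that stood apart gave 0.82 with an adjusted p of 0.0098. Cartilage markers summed to 22.3 to 81.5 RPKM in posterior and 7.67 to 35.1 RPKM in anterior libraries, and muscle markers ranged from 4.01 to 168 RPKM in posterior and from 6.37 to 106 RPKM in anterior libraries. The median sums were 27.0 RPKM in posterior and 51.2 RPKM in anterior libraries for epithelial markers, 649.9 and 455 RPKM for red cell markers, and 33.0 and 22.6 RPKM for macrophage markers. The part of these markers in the Dlk1 difference was not tested.

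**Figure D4:**
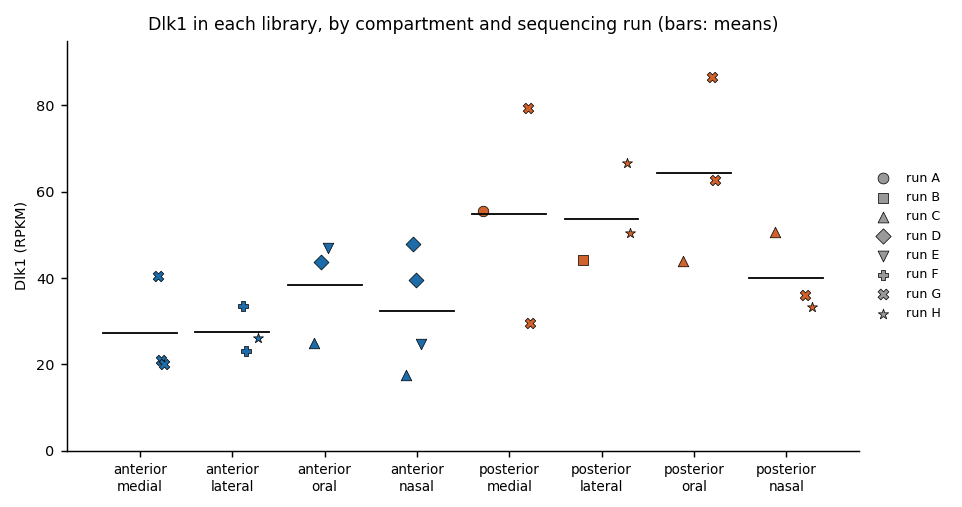
Dlk1 in RPKM in each of 25 libraries by compartment (blue anterior, orange posterior; bars are compartment means, symbols mark the 8 sequencing runs, lettered here). The posterior means, 40.0 to 64.4 RPKM, are all above the anterior means, 27.2 to 38.5 RPKM, while single libraries overlap.

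Meg3, the maternally expressed noncoding RNA downstream of Dlk1, had another order of compartments. Its means ran from 77.8 ± 5.16 in anterior medial to 45.7 ± 7.90 in posterior nasal tissue, and it gave -0.15 for posterior minus anterior on the log2 scale (limma, adjusted p = 0.60). Rian, another noncoding RNA of the cluster, had a median of 123 RPKM and its lowest mean, 84.3 ± 27.7, in posterior nasal tissue too. Rtl1, a paternally expressed gene of the cluster that derives from a retrotransposon, had a median of 17.6 RPKM and was 0.80 ± 0.27 higher in posterior oral than in nasal libraries (unadjusted P = 0.018, limma adjusted p = 0.36).

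Plagl1 had 1 library far from all others. In anterior oral replicate 1 it read 2041 RPKM, 6.33 times the next highest library, and the other anterior oral libraries had 247 and 170 RPKM. It was the 1 gene of that library that was at least 5 times as high as in every other library. Apart from this library Plagl1 lay between 94.8 and 322 RPKM, high in the anterior nasal compartment (270 ± 51.0, n = 4) and low in the posterior nasal one. Without that library it passed the test over the 8 compartments (limma, adjusted p = 0.026), with means 1.32 apart on the log2 scale, against an adjusted p of 0.38 with it. The value of 2041 RPKM would take 19786 reads over a transcript of 5914 bases, more than the 11828 start positions on both strands, although duplicate reads had been removed. The same held for H19 in posterior nasal replicate 1, with 9368 implied reads and 5232 start positions. The cause was not tested.

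H19, Cdkn1c and Grb10 had narrower spans of compartment means than Plagl1. The RNA of H19 is the precursor of miR-675, and Grb10 is an adaptor that damps insulin and insulin-like growth factor receptor signalling. H19 compartment means lay between 300 ± 95.8 (anterior oral) and 490 ± 92.1 RPKM (posterior nasal). Those of Cdkn1c lay between 118 ± 29.5 (posterior oral) and 193 ± 20.1 RPKM, and those of Grb10 between 117 ± 22.6 (posterior medial) and 166 ± 42.5 RPKM (posterior lateral). Igf2, the growth factor gene that shares enhancers with H19 and is expressed from the other parental chromosome, had a median of 346 RPKM and compartment means of 292 ± 53.6 to 438 ± 137 RPKM, with unadjusted P between 0.35 and 0.97 in the 4 comparisons of compartments (limma). Igf2r, the maternally expressed receptor that clears Igf2, had a median of 41.6 RPKM and was 0.54 ± 0.22 lower in posterior oral than in nasal libraries (unadjusted P = 0.041, limma adjusted p = 0.57). The row of miR-675 inside H19 was at 0 in all 25 libraries, as was that of miR-770 inside Meg3, and miR-335 inside Mest was above 0 in 10 libraries, at most 4.38 RPKM. These rows overlap their hosts.

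Mest and Ndn, a MAGE family protein, varied little between compartments and were high in the same 3 libraries. Mest had 614, 602 and 558 RPKM in anterior oral replicate 1, anterior nasal replicate 1 and posterior medial replicate 2, and 265 to 474 RPKM in the other libraries. Ndn had 109, 118 and 122 RPKM in them, and 48.3 to 78.0 RPKM in the others. These are the libraries least like the rest over all genes, and the part of that in the values was not tested. The row of Mest overlaps that of Copg2, a neighbouring gene with a median of 21.7 RPKM, and the libraries are not stated to keep strand.

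Pairs of members were compared by Pearson correlation of log2 values over the 25 libraries, which share compartments, runs and depth, so that r is a description. Over the 45 pairs r ran from -0.64 (H19 and Plagl1) to 0.86 (Mest and Ndn), with a median of 0.11. H19 and Plagl1 had a Spearman rho of -0.46, and r of -0.41 without the 3 libraries that stood apart. Without those libraries the 45 pairs ran from -0.46 (Peg3 and Ndn) to 0.75 (Zim1 and Peg3), with a median of 0.19. Zim1 and Peg3 had r of 0.85 (Spearman rho 0.77), 0.72 without the 2 libraries farthest out, 0.75 without the 3 libraries that stood apart and 0.74 for deviations from compartment means. Zim1 and Usp29 had 0.79, and Peg3 and Usp29 0.73. Zim1 is expressed from the maternal chromosome and the other 2 from the paternal one. Mest and Ndn had 0.86, and 0.66 without the 3 libraries. H19 and Cdkn1c had 0.23, H19 and Igf2 -0.15, and Dlk1 and Meg3 0.01. Without the 3 libraries these were 0.49, 0.33 and -0.004, so that the sign for H19 and Igf2 depended on those libraries. The Spearman rho of H19 and Igf2 over all 25 was 0.04.

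**Figure D5:**
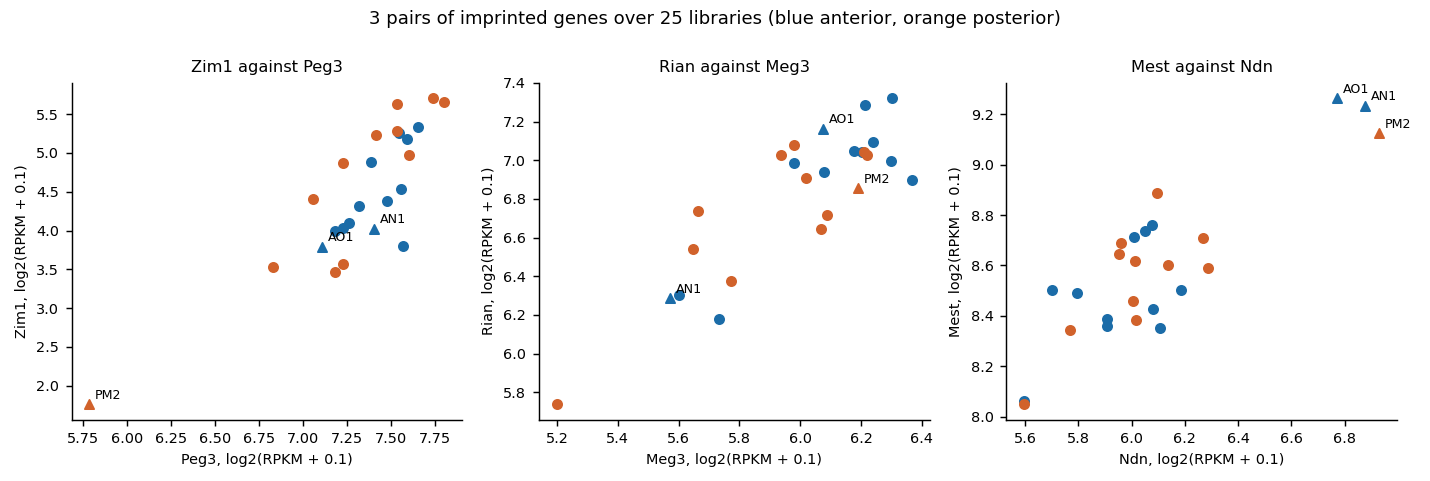
Log2(RPKM + 0.1) of 3 pairs of imprinted genes over 25 libraries (blue anterior, orange posterior; triangles mark anterior oral 1, anterior nasal 1 and posterior medial 2, the libraries least like the others). Zim1 rises with Peg3 (r = 0.85) and Rian with Meg3 (r = 0.86), and for Mest and Ndn (r = 0.86) the 3 triangles lie at the upper end.

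Among 11913 genes, the gene most like Meg3 over the libraries was Rian (r = 0.86), the gene most like H19 was Igf2r (0.86), and Mest was most like Ndn (0.86). For Zim1 they were B3gat1 (0.89), Ccdc21 (0.85) and Peg3 (0.85), with Usp29 in place 23. For Peg3 they were 1300014I06Rik (0.90), Zfp783 (0.90) and Kif5c (0.89). Without the 2 libraries farthest out in Peg3 these fell to 0.64, 0.66 and 0.74. Dlk1 was most like the homeobox gene Dlx2 (0.77), then Abi3bp (0.75) and Il11ra1 (0.74). Cdkn1c was most like the fibrillar collagen gene Col5a2 (0.82), then Lum, a keratan sulfate proteoglycan (0.77), and the collagen gene Col1a2 (0.76). Plagl1 was most like Bend4 (0.85), Grb10 most like Imp3 (0.86) and Ndn most like Ube2d3 (0.90).

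Of 60 other imprinted genes listed, 58 had a row and 41 had at least 5 RPKM in at least 3 libraries. In the anterior lateral against medial comparison 1 of 41 (2.44%) passed, beside 2.51% of all genes. This was Peg12, which was 0.83 ± 0.11 lower in lateral tissue (limma, adjusted p = 0.013). Its values were low, 3.35 ± 0.0637 against 6.08 ± 0.558 RPKM, and without any 1 of the anterior lateral libraries, or with the replicate block, the adjusted p was 0.053 to 0.076 (limma). Peg12 met the minimum of 5 RPKM only through the medial libraries (5.67 to 6.71 RPKM, lateral 3.28 to 3.40 RPKM). It thus entered the test only because its medial values were higher, and its p is not free of that choice. In the posterior lateral against medial comparison 0 of 39 passed, with 1 at an unadjusted P under 0.05, and in the anterior oral against nasal comparison 0 of 39, with 3 at an unadjusted P under 0.05. In the posterior oral against nasal comparison 1 of 40 (2.5%) passed, beside 1.25% of all genes. This was Dio3, the deiodinase gene of the Dlk1 cluster that inactivates thyroid hormone, which was 1.90 ± 0.28 higher in oral tissue (15.2 ± 2.98 against 4.08 ± 1.35 RPKM, limma, adjusted p = 0.021). Dio3 met the minimum through the oral libraries (12.3 to 18.3 RPKM), the nasal ones having 3.20 to 5.64 RPKM, so its p has the same limit. Without replicate 2 or 3 of either posterior compartment the adjusted p of Dio3 was 0.069 to 0.14 (limma), and it was 0.063 with the replicate block. In the posterior against anterior comparison 1 of 37 (2.7%) passed, beside 3.32% of all genes. This was Ppp1r9a, which was 0.35 ± 0.09 lower in posterior tissue (limma, adjusted p = 0.033). It did not pass in 14 of 37 alternative settings, where its adjusted p reached 0.32 (limma). Its adjusted p was 0.052 to 0.067 when any 1 of 11 libraries was left out, namely those of anterior lateral and posterior nasal tissue, posterior medial replicates 1 and 3, posterior lateral replicate 3, anterior medial replicate 2 and anterior oral replicate 2, and 0.056 with the replicate block. Over the 8 compartments 3 of 41 passed, Klf14, Usp29 and Dio3 (limma, adjusted p = 0.0027, 0.0032 and 0.017), a share of 7.32% beside the 4.42% of all genes. Klf14, a transcription factor gene near Mest, had its highest mean in anterior oral (33.9 ± 4.26 RPKM) and its lowest in anterior nasal tissue (9.65 ± 3.83 RPKM). Dio3 was highest in anterior oral tissue as well (31.2 ± 6.89 RPKM) and lowest in posterior medial tissue (2.35 ± 2.12 RPKM).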

How the data were processed

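Per the labels, total RNA from laser captured compartments of CD1 embryos was amplified with the NuGEN Ovation kit, tagmented with Nextera and sequenced. The authors deposited RPKM values for 37406 genes in 25 libraries, made with GeneSpring from single-end reads of 50 bases after removing duplicate reads and reads with more than 1 alignment. The submitters' processing notes name TopHat and mm9. The gene annotation and the use of strand are not given in the sources used here. The heading of 1 column names an alignment and not RPKM. Sequencing runs were read from the alignment names in headings of the study's supplementary tables. Some of these names carry words (ERK2_WT, Tgfbr2_WT, Zymo, SDS) that the labels do not explain.

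Groups came from the sample labels. Log2(RPKM + 0.1) values were compared with limma 3.58.1 in R 4.3.3 (lmFit and eBayes), as log2 differences of lateral less medial, oral less nasal and posterior less anterior. The anterior and posterior comparisons of compartments used their own libraries alone, and the genes that reached 5 RPKM in 3 or more of them. Posterior against anterior used genes that reached 10 RPKM in 6 or more libraries. For this comparison the study used a pooled Audic-Claverie test, in place of which the P of limma was taken here, also for the thresholds of the study. Benjamini-Hochberg adjustment ran over all genes tested. A fold change is on the log2(RPKM + 0.1) scale. With 3 libraries against 3 an exact permutation test cannot go below 0.1, so none was used. The limma step was tested on simulated data. Alternatives were pseudocounts of 1 and 0.01, median centring, quantile normalization, no filter, another expression minimum, a mean-variance trend, a replicate block, all 25 libraries in a single fit, run or position as a term, and each library left out. Leaving out the 3 libraries least like the others was added after seeing the data.

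Read totals were inferred from the steps between RPKM values. At the chosen totals, 319 of 809 genes gave a length equal to one of their annotated transcripts, and 14 did at the next best. Lengths were accepted for 7 members and not for Zim1, Grb10 and Mest, for which reads are given per 1000 bases. In the library with the fewest, posterior medial replicate 2, Zim1 had 7.74 reads per 1000 bases, and its median was 72.4. Such numbers bear on counting error only.

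Replicate numbers were checked for pairing by the correlation of deviations from the compartment means. For anterior oral and nasal libraries the 3 pairs gave 0.242, 0.218 and 0.116, and these were taken as paired, by this check alone. The other comparisons gave -0.101 to 0.305, and libraries of different numbers were not compared, so the check does not settle the pairing. The values printed are from the fit without the block, and the blocked ones stand beside them.

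The rule names the 10 genes in each comparison of compartments. Values of every library are printed for members that passed a test or the thresholds of the study, and tests for members with an unadjusted P under 0.05. Of the other imprinted genes, those with an adjusted p under 0.05 are named, and Igf2, Igf2r, Rian and Rtl1 always. Marker and gene lists came from general knowledge. The members, lists and tests were chosen with earlier results of these data known. Descriptions used pandas 2.3.3 and numpy 2.4.6 under Python 3.11.15, and plots matplotlib 3.10.9.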

Additional observations from a re-analysis of the deposited data

Results flagged for a closer look

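In anterior nasal replicate 1 Ndn stood at 118 RPKM, against 64.4, 67.6 and 72.7 RPKM in the other 3 anterior nasal libraries. Its gap to the nearest of them was 0.845 of the whole range, above Dixon's critical value for 4 libraries. Anterior nasal was the only compartment with 4 libraries, so that 10 such groups were tested, 1 per gene, and chance gives about 1 in 20. Mest in the same library had a ratio of 0.708 and Cdkn1c, low in anterior nasal replicate 4, one of 0.795, both under the critical value.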

How the results depend on the processing

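Directions were compared for members with an unadjusted P under 0.05 and for those at the ends of a printed range. They changed for Plagl1 in anterior oral against nasal, from 0.73 to -0.38 without anterior oral replicate 1 and to -0.29 without the 3 libraries least like the others (-0.38 to 1.41 over the libraries left out in turn), and for Ndn in posterior lateral against medial, from -0.22 to 0.016 with quantile normalization and 0.10 without posterior medial replicate 2 (-0.39 to 0.10 over the libraries left out). In anterior lateral against medial the count of members with an adjusted p under 0.05 was 1, and became 2 with a mean-variance trend, where Peg3 joined Zim1 at an adjusted p of 0.040, and 0 with all 25 libraries in a single fit and 0 with the sequencing run as a term. In posterior against anterior it was 1, and became 0 with each library centred on its median and 0 with the run as a term. Over the 8 compartments it was 1, and became 3 with quantile normalization and 2 without the 3 libraries least like the others, a choice made after seeing the data. Leaving out each library in turn gave 1 to 2 members there, with Peg3 added without posterior medial replicate 1 (adjusted p = 0.028) and Plagl1 without anterior oral replicate 1. The cause of these shifts was not tested. With the replicate block Zim1 was -1.21 in anterior lateral against medial with an adjusted p of 0.020, and Dlk1 was 0.70 in posterior against anterior with an adjusted p of 0.023. The replicate block changed no call of a member, and of the other imprinted genes it ended those of Peg12, Dio3 in posterior oral against nasal and Ppp1r9a. Outside anterior oral and nasal the replicate numbers were not taken as pairs. The correlations of deviations there ran from -0.101 to 0.305, a range that holds the values of the anterior oral and nasal pairs, so the check does not set these apart.

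With the run as a term Usp29 and Dio3 had adjusted p of 0.12 and 0.17 over the 8 compartments, and Peg12 and Dio3 had 0.87 or more in their comparisons with the run as a term or all 25 libraries in a single fit. There were 3 libraries in most compartments, and the values do not show which parental allele was read. Lateral and medial libraries came from different runs in both regions.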
